A study of Mus musculus with 27 samples.

Results

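A set of 6 genes that answer to bone morphogenetic protein (BMP) was followed here: Id1, Id2, Id3, Id4, Smad6 and Smad7. They were taken by symbol, 6 of 51906 symbols in the RNA-seq table and 6 of 32285 genes in each single cell matrix, by a rule that uses no measured value. Earlier results of these data were nevertheless known when the members were chosen. BMP ligands bind paired type I and type II serine/threonine kinase receptors, which phosphorylate SMAD1, SMAD5 and SMAD9. These then enter the nucleus with SMAD4 and switch on the Id genes. ID proteins carry a helix-loop-helix domain but no DNA-binding region, so that they capture E proteins such as TCF3, TCF4 and TCF12 and keep them off DNA. SMAD6 and SMAD7 are the inhibitory SMADs that close the loop, with SMAD6 acting mainly on BMP receptors and SMAD7 on both BMP and TGFβ receptors. In the hair follicle, BMP is known to keep bulge stem cells at rest and, later in the cycle, to direct progenitors of the bulb into the hair shaft and inner root sheath.

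The study asked how all-trans-retinoic acid (atRA), together with an inhibitor of protein kinase C (PKCi), acts on cultured hair follicle stem cells (HFSCs), with the nuclear receptor partner Rxra intact or deleted and with niche signals added. RNA-seq, cultured single cells and skin single cells all measured the genes. RNA-seq was made on 8 libraries of 3D HFSC cultures from 2 wild-type mice and 2 conditional knockouts (Rxra cKO, which carry Sox9-CreER;Rxra-fl/fl;R26-YFP), all at postnatal day 55 (telogen), each grown in fetal bovine serum (FBS) and in atRA+PKCi. Single cell RNA-sequencing was made on Anagen VI back skin of 2 mice at postnatal day 32, and on HFSC cultures from the same mice labelled with 7 hashtags (antibodies whose barcode gives each cell's culture). The hashtags stood for FBS, for the serum-free supplement B-27, for atRA+PKCi, for R-spondin (Rspo), for BMP2 with BMP4 (BMP2/4), for Rspo+BMP2/4, and for Rspo+BMP2/4 with an inhibitor of the retinoic acid receptor (RARi). Except in FBS and in B-27, atRA+PKCi was part of every medium, and the atRA+PKCi medium of the RNA-seq cultures held B-27 in place of serum, so that serum and atRA+PKCi change together there. Lines of HFSCs were first raised over mitomycin-treated feeders, and Cre in the Rxra cKO mice was driven by Sox9. Skin cells had been sorted against CD45, CD31, CD140a and CD117, yet immune-like, endothelial-like, fibroblast-like and melanocyte-like cells, which those antigens mark, were found among them.

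RNA-seq libraries held between 25150162 and 35879630 counts. Gene-level counts of Rxra cover the whole gene and do not resolve its loxP-flanked part, so they do not check the genotype: Rxra stood at 97.2 and 95.7 counts per 1000000 (CPM, after TMM normalization) in the libraries labelled Rxra cKO in FBS, at 148 and 145 in those in atRA+PKCi, and between 122 and 149 in the 4 wild-type libraries. Krt5 and Krt14, keratins of basal epithelial cells, were high in every library. Markers of HFSCs differed among themselves. Lgr5 and Lhx2, which mark HFSCs in the skin, had at most 5 and 3 counts in any library, and Cd34 at most 81. Sox9 and Krt15, which the paper uses as HFSC identity markers, were found in all 8 libraries, Sox9 with 1949 counts or more. Krt15 had 100 and 123 counts in the wild-type FBS libraries and 142677 and 139843 in their atRA+PKCi counterparts. For Rxra cKO these counts were 181 and 254, then 9596 and 6588. Krt17 and Barx2 were used here as outer root sheath markers. Krt17 had 2140 and 2464 counts in wild-type FBS and 48123 and 61212 in Rxra cKO FBS. In atRA+PKCi it had 1507 and 1806 in wild-type and 57267 and 39187 in Rxra cKO. Barx2 went the other way in both media, with 1029 and 941 counts in wild-type FBS and 344 and 424 in Rxra cKO FBS. Their part in the members' differences was not tested. The 7 feeder and fibroblast markers summed to between 1.32 and 11.8 CPM, with Lum at 0 in all 8 libraries and Thy1 at 0 in both wild-type atRA+PKCi libraries. The cultured matrices held 449 and 208 barcodes, fewer cells than the study counts, of which 222 and 78 passed the filters with a single hashtag. No barcode was shared by these matrices, whereas 62 barcodes of the skin matrices occurred in both mice. Replicates are mice, and p-values measure the spread between these few samples.

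The members lie on 6 chromosomes, with no pair as neighbors. On GRCm38 (GENCODE M21), Id1 spans chr2:152736251-152737410 on the forward strand, Id2 chr12:25093799-25097140 on the reverse strand, Id3 chr4:136143497-136145755 on the forward strand and Id4 chr13:48261228-48266026 on the forward strand. The 4 Id genes are short, with between 1160 and 3849 exonic bases. Smad6 spans chr9:63953076-64022059 on the reverse strand, with 3205 exonic bases in 68984. All 6 are protein-coding. Antisense genes A330033J07Rik and Gm49291 overlap Id4, and whether the RNA-seq counts used strand is not given in the sources used here, so that reads of Id4 and of these genes cannot be told apart.

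BMP-activated SMADs are known to bind the GC-rich letters GGCGCC, and that motif is its own reverse complement. Upstream sequence from RefSeq (GRCm38.p6) is shown to let the start regions of BMP-responsive genes be compared, for those of the 4 members searched whose window before the start site lies at least in part outside an annotated UTR, 5′ to 3′ on the gene's own strand, with GGCGCC in capitals. Windows of Id1 and Smad7 were not searched here. The Id2 run is chr12:25096254-25096342 (reverse strand, the 89 bases of its window before an annotated UTR). It lies inside the GENCODE span of Id2 given above, so by that annotation it is not upstream of the gene. The Id4 run is chr13:48260866-48261115 (forward strand, 250 bases) and the Smad6 run is chr9:64022060-64022309 (reverse strand, 250 bases).
Id2: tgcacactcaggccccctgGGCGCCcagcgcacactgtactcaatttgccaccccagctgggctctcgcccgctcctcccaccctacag
Id4: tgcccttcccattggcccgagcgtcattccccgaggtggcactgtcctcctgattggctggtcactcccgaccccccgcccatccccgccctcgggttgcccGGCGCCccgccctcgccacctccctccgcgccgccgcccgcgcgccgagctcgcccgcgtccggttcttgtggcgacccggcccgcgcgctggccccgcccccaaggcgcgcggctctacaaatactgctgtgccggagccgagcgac
Smad6: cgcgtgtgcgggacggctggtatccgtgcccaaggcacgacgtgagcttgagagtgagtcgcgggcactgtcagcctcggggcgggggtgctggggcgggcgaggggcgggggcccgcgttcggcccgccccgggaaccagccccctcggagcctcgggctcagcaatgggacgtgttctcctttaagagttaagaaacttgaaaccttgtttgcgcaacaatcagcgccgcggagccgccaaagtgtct
The windows of Id2 and Id4 each held GGCGCC 1 time. Smad6 held none, and neither did the 250-base window of Id3, which lies within its annotated UTR and is not printed. Across 32851 windows of 250 bases, 3149 (9.59%) held the motif. The SMAD element CAGAC, searched on both strands, was found 2 times in the window of Id3 and not in those of Id2, Id4 or Smad6, against 13861 of all windows (42.2%). No window of these members held both motifs. These matches describe letters and are not binding sites.

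In the cultured HFSCs, Id1, Id2, Id3 and Smad7 were 7.10-fold to 15.7-fold higher with BMP2/4 than in B-27, and Id4 and Smad6 gave few UMIs. Values are counts of unique molecular identifiers (UMIs) per 1000000 (CPM), summed over the cells of a mouse and culture, with 113 and 13 cells in BMP2/4, 92 and 27 in Rspo+BMP2/4, 5 and 10 in B-27, 5 and 6 in Rspo, 5 and 21 in Rspo+BMP2/4+RARi, 2 and 1 in atRA+PKCi and 0 in FBS (mouse 1, then mouse 2 throughout). Exact Poisson 95% intervals cover counting error only. Of the HFSC markers named above, Cd34 had 0 UMIs in every sum, Lhx2 at most 2 and Lgr5 at most 15. Sox9 had 3 UMIs or more and Krt15 had 15 or more in every sum.

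Id1, the classic BMP-induced inhibitor of E proteins, had 84.7 and 50.1 CPM in B-27, 67.1 and 90.6 in atRA+PKCi, and 80.2 and 75.7 in Rspo. It had 663 (interval 637 to 689.6) and 552 (489 to 620) in BMP2/4, 587 and 527 in Rspo+BMP2/4, and 229 (143 to 346) and 558 in Rspo+BMP2/4+RARi. By these sums, every culture with BMP2/4 thus lay above every culture without it in both mice. The lowest, RARi in mouse 1, rested on 22 UMIs of 5 cells. The median of Id1 over single cells of mouse 2 was 224 CPM in Rspo, above its sum, and 321 in BMP2/4. Over single cells of mouse 1 in BMP2/4, the quartiles of Id1 were 435, 588 and 808 CPM, and 5 of 113 cells had no UMI of it. Against B-27, Id1 was higher by 3.31 ± 0.65 (log2, SE) in BMP2/4 (edgeR quasi-likelihood, adjusted p = 0.00186).

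Id2, which also restrains E proteins and is widely expressed in progenitors, had 21.2 and 54.6 CPM in B-27, 174 (92.8 to 298) and 113 (36.8 to 264) in atRA+PKCi and 80.2 and 96.3 in Rspo. With BMP it had 568 and 574 CPM in BMP2/4, 427 and 420.1 in Rspo+BMP2/4, and 93.6 (42.8 to 178) and 257 in Rspo+BMP2/4+RARi. The cultures without RARi were above all those that lacked BMP, whereas the RARi culture of mouse 1 lay among the latter. Id2 had the largest difference from B-27 of the members, 3.97 ± 0.70 in BMP2/4 (adjusted p = 0.000663).

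Id3, which shares BMP induction with Id1 in many cells, had 42.3 and 36.4 CPM in B-27, 40.2 and 45.3 in atRA+PKCi, and 29.2 and 82.6 in Rspo. It had 399.6 and 462 CPM in BMP2/4, 359 and 315 in Rspo+BMP2/4, and 104 (49.9 to 191) and 352 in Rspo+BMP2/4+RARi. The sums with and without BMP did not overlap, although the interval of RARi in mouse 1 reached into the levels of Rspo. Over the 6 single Rspo cells of mouse 2, however, the median of Id3 was 290 CPM (quartiles 46.9 and 602). That was above its sum and above the median of 203 in Rspo+BMP2/4 of that mouse. The difference between BMP2/4 and B-27 was 3.55 ± 0.71 (adjusted p = 0.00206).

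Id4, which gave the fewest UMIs of the Id genes here, had 14.6 and 23.5 CPM in BMP2/4, 13.8 and 12.6 in Rspo+BMP2/4, and 31.2 (6.44 to 91.2) and 14.9 in Rspo+BMP2/4+RARi. In cultures without BMP it had 0 UMIs in 4 sums and 1 UMI in each of the other two, and the upper bounds of their intervals, between 19.5 and 83.6 CPM, lay among or above the levels with BMP. Single sums without BMP could thus not be told apart from those with BMP by these intervals, although all sums with BMP were above all those without. Over both mice, Id4 had 66 UMIs (15.7 CPM) in BMP2/4 and 1 UMI (2.45 CPM) in B-27. The filter on low counts kept it out of the test, so a difference in Id4 was not tested.

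Smad6, the inhibitory SMAD tied most closely to BMP receptors, had 1 UMI in each B-27 sum (5.29 and 4.55 CPM) and 0 in the atRA+PKCi and Rspo sums. It had 16.2 and 43.1 CPM in BMP2/4, 27.6 and 40.7 in Rspo+BMP2/4, and 52.0 (16.9 to 121) and 34.8 in Rspo+BMP2/4+RARi. All 6 sums with BMP were above all those without, whose intervals reached up to 83.6, and the difference from B-27 did not pass the test, at 2.45 ± 0.93 in BMP2/4 (adjusted p = 0.105) and 2.78 ± 0.89 in Rspo+BMP2/4 (adjusted p = 0.0594). Smad7, the inhibitor shared with the TGFβ pathway, spans chr18:75367529-75395935 on the forward strand, with 4521 exonic bases in 28407. It had 26.5 and 22.8 CPM in B-27, 67.1 (21.8 to 157) and 0 (up to 83.6) in atRA+PKCi, and 51.1 and 41.3 in Rspo. With BMP it had 168 and 155 CPM in BMP2/4, 145.5 and 225 in Rspo+BMP2/4, and 62.4 (22.9 to 136) and 138 in Rspo+BMP2/4+RARi. The RARi culture of mouse 1 overlapped the cultures without BMP, and the other 5 did not. Smad7 was higher in BMP2/4 than in B-27 by 2.83 ± 0.60 (adjusted p = 0.00313).

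**Figure D1:**
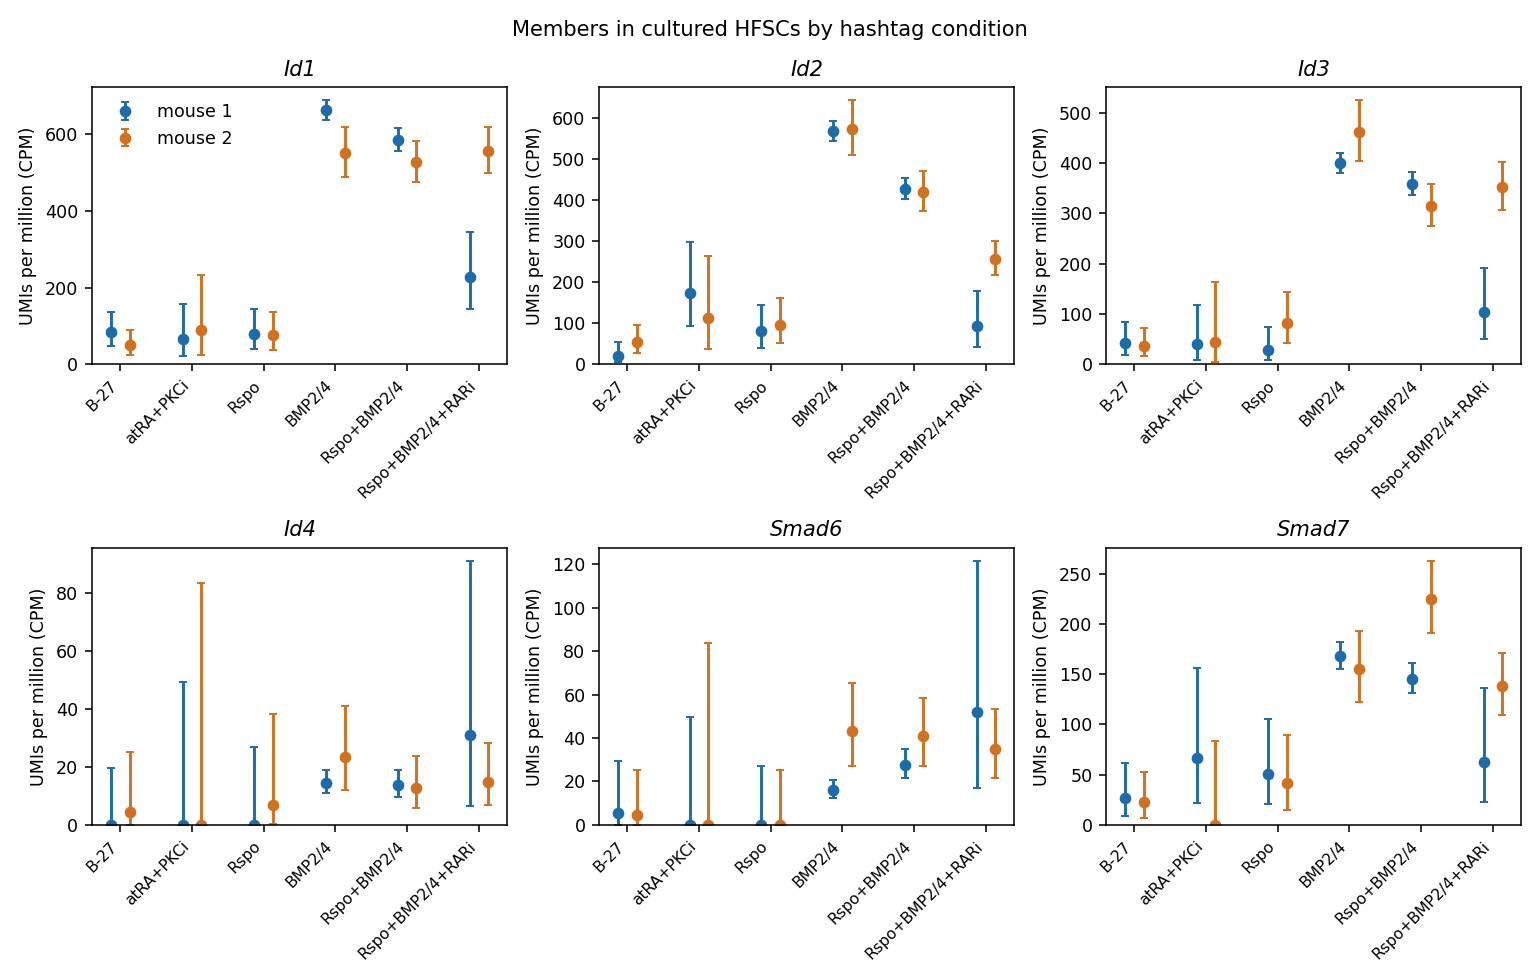
CPM of each member (vertical axes, linear, own range per gene) in 6 culture conditions, with a point per mouse and exact Poisson 95% intervals. In BMP2/4 and Rspo+BMP2/4, Id1 sits at 527 or more and Smad7 at 145.5 or more, against at most 90.6 and 67.1 in B-27, atRA+PKCi and Rspo.

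Across 6265 genes, 0.431% were called higher and 5.28% lower in BMP2/4 than in B-27, with the adjusted p below 0.01 and a change of more than 2-fold. Of the 27 genes called higher, 4 were members, out of 5 members tested, and no member was lower. Rspo+BMP2/4 against B-27, which shares the B-27 sums, had 0.495% higher and 5.09% lower, and the same 4 members were among its 31 higher genes, with Id1 at 3.14 (adjusted p = 0.00286), Id2 at 3.49 (adjusted p = 0.00198), Id3 at 3.17 (adjusted p = 0.00499) and Smad7 at 2.94 (adjusted p = 0.00237). The median over the 5 members was 3.31 and 3.14, beside 0.01 and 0.02 over all genes. B-27 cultures held neither BMP2/4 nor atRA+PKCi, so those additions cannot be told apart in these contrasts.

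Leaving out 1 sum of a mouse and culture left the fold changes of Id1, Id2, Id3 and Smad7 between 2.71 and 5.00 on the log2 scale, and those of Smad6, not called in either contrast, between 1.94 and 3.14, and calls were lost where it left a culture with 1 sum, which is then assumed to vary like the others. In BMP2/4 against B-27, no member was called without B-27 of mouse 1 (Id2 3.42, adjusted p = 0.0475), and 1 member, Id2, was called without B-27 of mouse 2 or without BMP2/4 of either mouse. In Rspo+BMP2/4 against B-27, no member was called without either B-27 sum or either Rspo+BMP2/4 sum, where adjusted p-values over Id1, Id2, Id3 and Smad7 ranged from 0.0106 to 0.108.

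The culture that differs from BMP2/4 only by the BMP ligands is atRA+PKCi alone, which had 2 cells and 1 cell, under the minimum of 5 set here, and was not tested. Over both mice, the ratio of BMP2/4 to atRA+PKCi was 8.56 for Id1 (2732 against 9 UMIs), 3.75 for Id2 (2394 against 18), 9.67 for Id3 (1713 against 5) and 3.95 for Smad7 (700 against 5). Smad6 and Id4 had 0 UMIs in atRA+PKCi, where 3 counts over the group would be 25.3 CPM, above the 19.5 and 15.7 CPM of these genes in BMP2/4. The Rspo cultures give another comparison, since Rspo+BMP2/4 adds only the ligands to them. Id1 was higher there by 2.69 ± 0.65 (adjusted p = 0.205), Id2 by 2.10 ± 0.65 (adjusted p = 0.388), Id3 by 2.41 ± 0.70 (adjusted p = 0.320) and Smad7 by 1.83 ± 0.57 (adjusted p = 0.411). With 0 UMIs in Rspo, Smad6 was at least 2.87-fold higher in Rspo+BMP2/4 against 3 counts over the group. None of the 5 members tested was called by edgeR (0% of genes were), although all 5 had an unadjusted p under 0.05, as did 423 of 6265 genes. DESeq2 called 1 member, Id1 (2.63, adjusted p = 0.00752). The Rspo cells of mouse 2 had a median of 2359 UMIs, against 17192 in mouse 1.

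No difference in the members was detected when Rspo was added to BMP2/4. Rspo+BMP2/4 against BMP2/4 gave -0.18 ± 0.56 for Id1, -0.48 ± 0.56 for Id2, -0.38 ± 0.58 for Id3, 0.33 ± 0.46 for Smad6 and 0.11 ± 0.45 for Smad7, all with an adjusted p of 0.9998. With RARi added to Rspo+BMP2/4 the differences were -0.59 ± 0.57 for Id1, -1.30 ± 0.59 for Id2, -0.59 ± 0.59 for Id3, 0.11 ± 0.53 for Smad6 and -0.84 ± 0.48 for Smad7 (adjusted p between 0.959 and 0.984). These standard errors leave room for changes in either direction. No gene passed in either contrast by edgeR (0% and 0%) or by DESeq2. Without adjustment, 44 genes and no member passed 0.05 in the former, and 233 genes and 1 member, Id2, in the latter. The mice also differed within RARi, where Id1, Id2, Id3 and Smad7 were all lower in mouse 1, which had 5 cells, than in mouse 2, which had 21, with intervals that overlapped for Smad7.

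Other genes of the pathway showed few calls in these sums. Against B-27, none of 4 receptors, 4 receptor-activated or common SMADs, 6 regulators of SMAD turnover or repression, 3 E proteins, 1 ligand, 3 antagonists and 2 other BMP-responsive transcription factors passed in BMP2/4. In Rspo+BMP2/4, the activin and BMP receptor Acvr2a fell by 2.46 on the log2 scale (adjusted p = 0.00331), and Skil, a co-repressor of SMADs that is itself a SMAD target, was higher by 2.71 (adjusted p = 0.00749). The E proteins that ID proteins bind did not pass (Tcf3 0.50, Tcf4 -0.28 and Tcf12 0.41 in BMP2/4). Epidermal differentiation genes moved with these contrasts: 4 of 5 tested were lower in BMP2/4, led by Flg, which encodes filaggrin (-7.70), and Sbsn (-4.56), and 3 of 5 were lower in Rspo+BMP2/4. The 7 genes of that list summed to 6848 and 4766 CPM in B-27, 409 and 403 in BMP2/4, 496 and 417 in Rspo+BMP2/4, 511 and 392 in Rspo, 468 and 456 in RARi and 295 and 1065 in atRA+PKCi, so that B-27 stood apart from all others. Their part in the difference of the members from B-27 was not tested. Of the feeder and fibroblast markers, 6 of 7 were at 0 in every sum and Pdgfra had at most 5 UMIs.

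In skin of Anagen VI, the growth phase in which the bulb makes a hair, the members had distinct patterns over cell classes. Cells of both mice (14458 and 13915 past the filters, 13625 and 13608 after removal of predicted doublets) were clustered without the 6 genes, which gave 36 clusters and 23 classes, of which 13 were named by their markers. Median depth was 8869 and 10594 UMIs a cell. Free RNA was not removed, so that the lowest levels cannot be told apart from it. Levels are CPM in mouse 1 and mouse 2. With 2 mice, no test of classes was made, and the order is a description.

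Id1 was highest in hair shaft medulla-like cells (551 and 454 CPM), whose leading genes included Foxq1 and Tchh. Their 10 leading genes also held Krtap15, Krtap8-1 and S100a3, and 1 of the 10, Foxq1, was on the medulla list. All 4 markers of that list were found in at least 10% of these cells. Id1 was next highest in unnamed cluster 6 (362 and 286), led in part by the hair keratins Krt35 and Krt86 and by Dsg4, and in hair matrix-like cells (328 and 251), the dividing progenitors of the bulb. The first of these 3 classes lay above the others in both mice, while cluster 6 and hair matrix-like cells overlapped. Endothelial-like cells had 180.4 and 144 CPM, outer root sheath-like cells 103 and 94.2, dermal fibroblast-like cells 24.5 and 21.9, and the lowest class, unnamed cluster 9 (led in part by Areg, Krt18 and Aqp5), 16.5 and 19.5. The median over classes was 59.6 CPM.

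Id2 was highest in melanocyte-like cells, with 508 and 359 CPM, a class led by the pigment genes Mlana, Pmel and Dct. Cluster 6 (326 and 261) and hair matrix-like cells (210.5 and 165) followed, and medulla-like cells had only 121 and 88.2. The melanocyte-like class had 98 and 86 cells and did not overlap cluster 6. Suprabasal epidermis-like cells had the least Id2, 35.0 and 26.9 CPM.

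Id3 was the most evenly spread member, with its highest class only 2.07 times the median over classes of 308 CPM. It was high in medulla-like (744 and 529), hair matrix-like (664 and 477), dermal papilla-like (589.5 and 547), cluster 6 (639 and 425), melanocyte-like (539.6 and 428) and inner root sheath-like cells (539 and 334). The first 4 of these classes overlapped, and dermal papilla-like cells, the signaling center beneath the matrix, were highest in mouse 2. Suprabasal epidermis-like cells (98.3 and 67.8) and unnamed cluster 25 (116 and 38.8, led in part by the milk protein genes Csn3 and Lalba) had the least.

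Id4 had the narrowest pattern. It stood at 278 and 234 CPM in contractile mural and sheath-like cells and at 237 and 228 in outer root sheath-like cells, the outer epithelial layer of the follicle, and these classes overlapped. The clusters of the contractile class differed in Id4, as given below. Unnamed cluster 19, led in part by the basal genes Krt15 and Col17a1, followed with 108 and 91.1. Medulla-like cells, where Id1, Id3 and both inhibitory SMADs were highest, had 7.14 and 9.32, below the median over classes of 15.5. The highest class was 16.5 times that median.

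Both inhibitory SMADs were highest in medulla-like cells. Smad6 had 89.3 and 137 CPM there, then 67.0 and 89.3 in cluster 6, 62.3 and 80.2 in melanocyte-like cells and 55.5 and 64.0 in dermal papilla-like cells. The lower value of the medulla-like class and the higher value of cluster 6 lay within counting error of each other (intervals 80.6 to 98.7 and 80.1 to 99.2). Smad7 had 390.4 and 349 in medulla-like cells, well apart from melanocyte-like cells (206 and 143), cluster 6 (164 and 166) and hair matrix-like cells (156 and 133). Outer root sheath-like cells were low in both, with 12.3 and 19.8 CPM of Smad6 and 28.3 and 29.3 of Smad7.

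**Figure D2:**
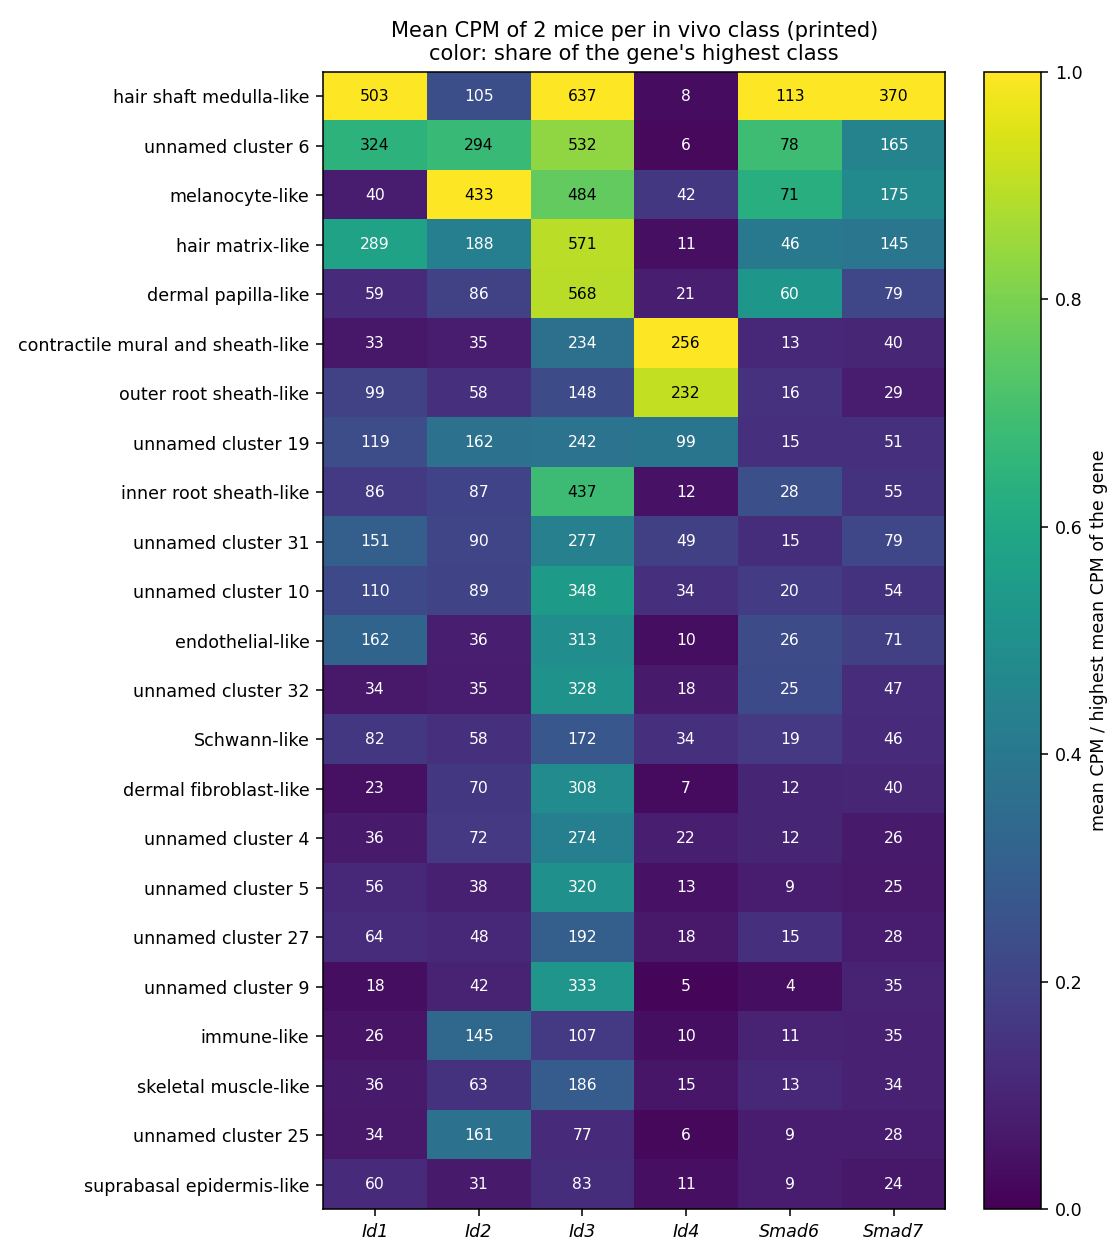
Mean CPM over 2 mice of each member (columns) in 23 classes of skin cells (rows), printed in each cell, with color as the share of that gene's highest class. Medulla-like cells lead in Id1 (503), Id3 (637), Smad6 (113) and Smad7 (369.6), melanocyte-like cells in Id2 (433) and contractile mural and sheath-like cells in Id4 (256).

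Most neighbors in these orders could not be separated. Of 22 neighboring pairs of classes, 6 did not overlap between the mice for Id1, 2 for Id2, 2 for Id3, 5 for Id4, 7 for Smad6 and 3 for Smad7. The levels of a class nevertheless went together in the mice, with Pearson's r over 23 classes between 0.810 for Id3 and 0.888 for Id4.

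Clusters within classes separated the members further. Among outer root sheath-like cells, Id4 was highest in cluster 11 (331 and 357 CPM), led in part by Edn2 and Tbx1 and with Id4 itself among its 10 leading genes, followed by cluster 15 (193 and 164), led by Krt6a and Krt14, cluster 29 (146 and 130.0) and cluster 33 (142 and 141). Id1 went another way, with 69.0 and 62.6 in cluster 11 and 27.8 and 37.9 in cluster 15. In cluster 29, led in part by Lgr5 and Fgf5, it had 199 and 179.6. In cluster 33, which also had Lgr5 among its 10 leading genes, it had only 25.4 and 20.7. Id3 followed Id1, with 341 and 282 in cluster 29 against at most 87.8 in the other clusters of the class. Id1 and Id3 thus peaked in another cluster of the class than Id4, in both mice.

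Among inner root sheath-like cells, cluster 1, led by Krt71 and Krt73, had more Id3 (586 and 465 CPM) than cluster 26 (247 and 149.9), led in part by Cux1. Smad6 had the opposite order, with 14.9 and 16.8 in cluster 1 and 56.3 and 59.8 in cluster 26, and so had Smad7, with 45.7 and 35.2 against 94.3 and 88.0. Of the 10 leading genes of cluster 26, 0 were on the inner root sheath list, against 5 for cluster 1. Of the 7 markers on that list, 6 were found in at least 10% of the cells of cluster 26. The contractile class split as well. Cluster 14, led in part by the pericyte and smooth muscle genes Rgs5 and Myh11, had 743 and 360 CPM of Id3 and 162 and 197 of Id4. Cluster 28 had 54.4 and 72.5 of Id3 and 331 and 263 of Id4. Its leading genes included Il17b, Mia and Lama1 beside Cnn1 and Acta2, and 1 of the 10, Acta2, was on the marker list of the class. Of the 6 markers on that list, 4 were found in at least 10% of its cells, so its name rests on few genes. None of these pairs of clusters overlapped between the mice.

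**Figure D3:**
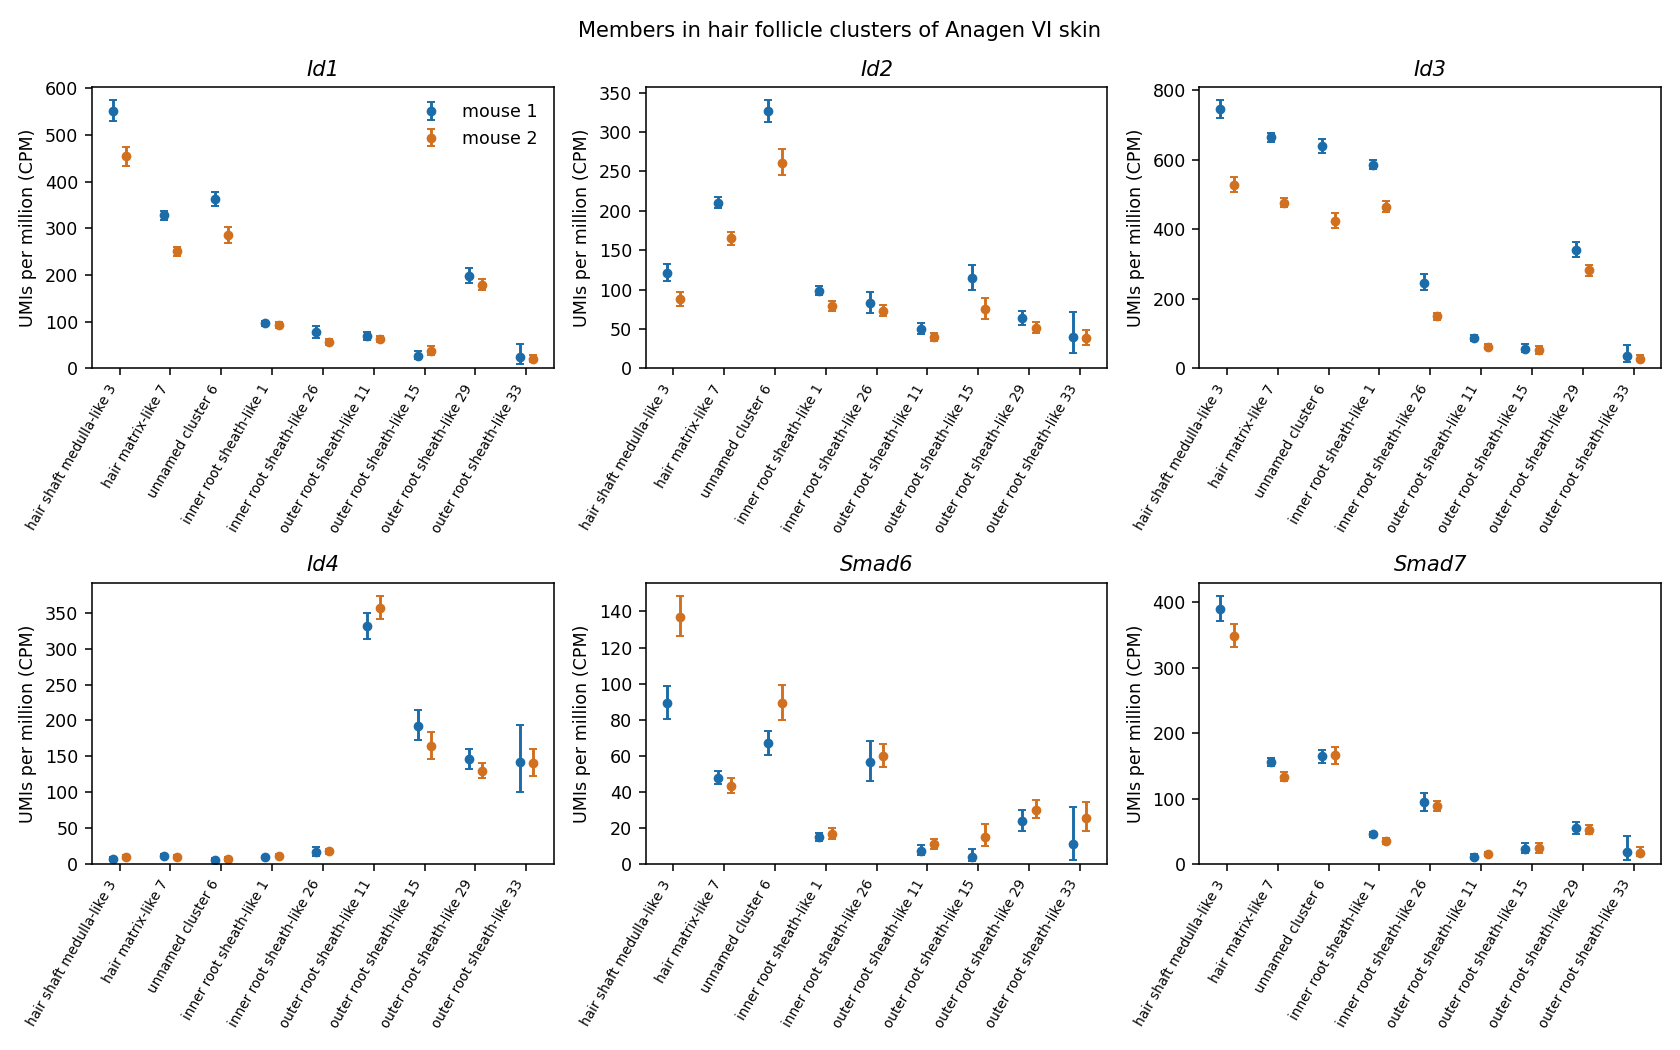
CPM of each member (vertical axes, linear, own range per gene) in 9 clusters of hair follicle cells, with a point per mouse and exact Poisson 95% intervals. Id4 is at 130.0 or more in the 4 outer root sheath-like clusters shown and is at most 17.8 in the other 5, while Id1, Id3, Smad6 and Smad7 are highest in the medulla-like cluster.

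Across 23 classes, the members most alike were Smad6 and Smad7 (Pearson's r of class means 0.893), each the other's nearest among 10074 genes. Id3 and Smad7 had 0.733, Id1 and Smad7 0.699, Id3 and Smad6 0.693 and Id1 and Smad6 0.670. Id4 was unlike all the others, with r between -0.12 and 0.01. The genes most like Id1 were Egr3 (0.883), Hoxc13 (0.876) and Gtf2ird1 (0.844), those most like Id2 were Tmem192 (0.726), Tmem251 (0.713) and Dct (0.689), and those most like Id3 were Cfap36 (0.796), Ublcp1 (0.750) and Flywch1 (0.748). Id4 was most like Cspg4 (0.803), Klhl29 (0.794) and Fblim1 (0.784). After each other, Smad6 was most like Gm4258 (0.851) and Lef1 (0.836), and Smad7 most like Mtmr2 (0.853) and Whrn (0.845). Class means share libraries and depth, and these coefficients are descriptions.

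In RNA-seq of the HFSC cultures, the members differed between media and between genotypes, each in its own way. Levels are TMM-normalized CPM, and within each group the 2 libraries are given in order of their mouse numbers. In bulk RNA, fewer cells of a type and less RNA per cell cannot be told apart. Per kilobase of exon, the wild-type FBS cultures ranked Id1 (86.8 ± 0.35 CPM per kb, SD, n = 2), Id3 (66.8 ± 2.89), Id2 (50.1 ± 4.79), Smad7 (15.5 ± 2.01), Smad6 (4.09 ± 0.37) and Id4 (0.66 ± 0.09), with no overlap between neighbors. In wild-type atRA+PKCi the order was Id2 (128 ± 10.6), Id1 (113 ± 8.36), Id3 (47.1 ± 4.22), Smad6 (4.43 ± 0.02), Smad7 (4.03 ± 0.17) and Id4 (3.96 ± 0.75), where Smad7 and Id4 overlapped and Id4 also spanned Smad6.

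In wild-type cultures, Id1 had 100.4 and 101 CPM with FBS and 125 and 138 with atRA+PKCi, but it had 54.7 and 53.7 in Rxra cKO FBS and 31.4 and 34.9 in Rxra cKO atRA+PKCi. None of the 4 groups overlapped. Id1 thus rose in atRA+PKCi in wild-type cultures (log2 0.39 ± 0.08, edgeR adjusted p = 0.00254) and fell in Rxra cKO cultures (-0.71 ± 0.08, adjusted p = 0.000151). In atRA+PKCi it was 3.97-fold lower in Rxra cKO than in wild-type (-1.99, adjusted p = 4.47e-07).

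Id2 had 114 and 130.4 CPM in wild-type FBS, then 294 and 331 in wild-type atRA+PKCi, 56.6 and 65.7 in Rxra cKO FBS, and 67.7 and 66.2 in Rxra cKO atRA+PKCi. The wild-type atRA+PKCi libraries stood far above the rest, and the Rxra cKO media lay close to each other. Id2 rose 2.56-fold in wild-type (1.35 ± 0.10, adjusted p = 6.62e-06), while in Rxra cKO its difference was 0.13 ± 0.10 (adjusted p = 0.338). Within atRA+PKCi it was 4.66-fold lower in Rxra cKO (-2.22, adjusted p = 9.23e-07).

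Id3 had 123 and 116 CPM in wild-type FBS, then 79.0 and 89.7 in wild-type atRA+PKCi, 118 and 122 in Rxra cKO FBS, and 58.2 and 57.2 in Rxra cKO atRA+PKCi. The FBS groups overlapped, and both atRA+PKCi groups lay under them. Id3 fell in both genotypes, with a log2 change of -0.50 ± 0.08 in wild-type (adjusted p = 0.000549) and of -1.06 in Rxra cKO (adjusted p = 1.21e-05).

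Id4 was scarce in FBS, with 63 and 72 counts (2.30 and 2.78 CPM) in wild-type and 13 and 41 counts (0.47 and 1.33 CPM) in Rxra cKO. In atRA+PKCi it had 17.3 and 13.2 CPM in wild-type and 3.04 and 2.50 in Rxra cKO, which overlapped wild-type FBS. It rose 5.99-fold in wild-type (2.58 ± 0.32, adjusted p = 0.000185), and by 1.61 ± 0.37 in Rxra cKO (adjusted p = 0.00831). That last call was lost without replicate 1 of Rxra cKO atRA+PKCi (1.47, adjusted p = 0.0537).

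In wild-type cultures, Smad6 had 13.9 and 12.2 CPM with FBS and 14.1 and 14.2 with atRA+PKCi, against 1.91 and 2.53 in Rxra cKO FBS and 4.16 and 4.54 in Rxra cKO atRA+PKCi. Genotype separated these libraries more than medium did. Smad6 was lower in Rxra cKO than in wild-type in FBS (log2 -2.56, adjusted p = 6.46e-06) and in atRA+PKCi (-1.71, adjusted p = 2.82e-05), and it rose in atRA+PKCi in Rxra cKO (0.97 ± 0.16, adjusted p = 0.00158) but not measurably in wild-type (0.11 ± 0.14, adjusted p = 0.511). Smad7 had 76.4 and 63.5 CPM in wild-type FBS, then 18.8 and 17.6 in wild-type atRA+PKCi, 43.0 and 44.0 in Rxra cKO FBS, and 14.3 and 17.4 in Rxra cKO atRA+PKCi. Every atRA+PKCi library was under every FBS library. Smad7 was 3.84-fold lower in atRA+PKCi in wild-type (-1.94 ± 0.12, adjusted p = 1.82e-06) and lower in Rxra cKO as well (-1.46, adjusted p = 2.17e-05).

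**Figure D4:**
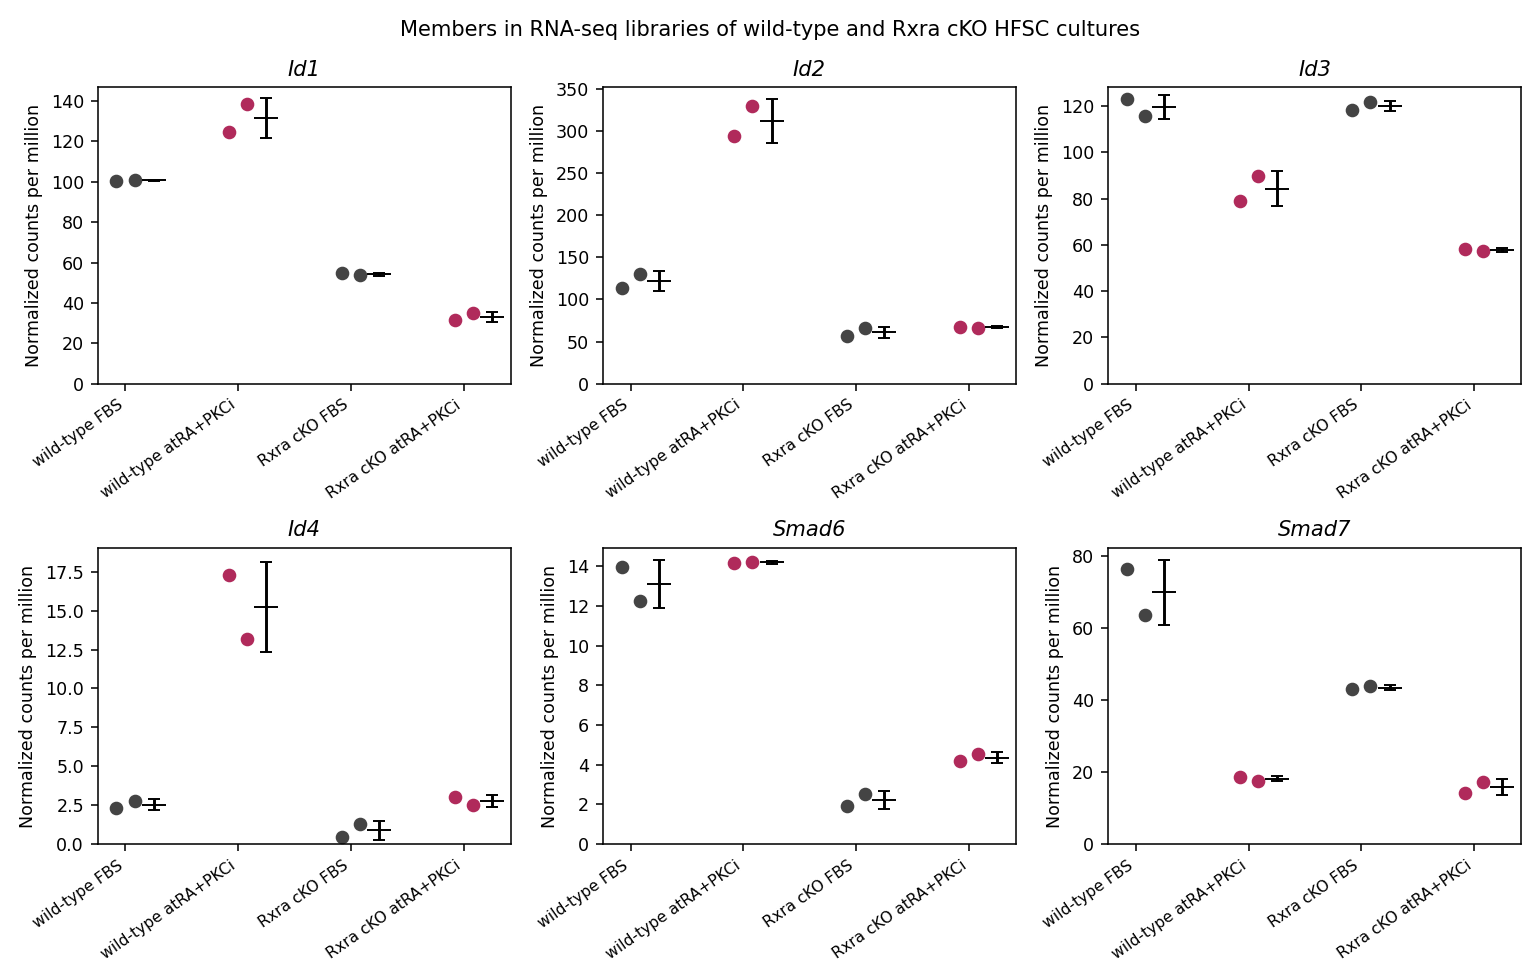
TMM-normalized CPM of each member (vertical axes from 0, own range per gene) in the 8 RNA-seq libraries, a point per library, with mean and SD of each pair beside it. Id2 reaches 294 and 331 in wild-type atRA+PKCi and at most 130.4 elsewhere, and Smad7 is between 14.3 and 18.8 in all 4 atRA+PKCi libraries.

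In FBS, 5 of 6 members were lower in the libraries labelled Rxra cKO, with log2 differences of -0.89 for Id1 (adjusted p = 3.87e-05), -0.997 for Id2 (adjusted p = 9.44e-05), -1.47 for Id4 (adjusted p = 0.0137), -2.56 for Smad6 and -0.69 for Smad7 (adjusted p = 0.00127). Id3 had a difference of 0.01 (adjusted p = 0.965). In atRA+PKCi, 5 of 6 were lower too, with -0.55 for Id3 (adjusted p = 0.000528), -2.45 for Id4 (adjusted p = 0.000331) and -0.21 for Smad7, which did not pass (adjusted p = 0.198). Over 15965 genes tested, 20.5% were lower and 22.3% higher in Rxra cKO in FBS, and 20.2% lower and 23.0% higher in atRA+PKCi. The members' median was -0.95 and -1.85, beside 0.02 and 0.00 over all genes. The media effects divided the members: 3 were higher and 2 lower in wild-type, where 27.2% of genes were higher and 26.6% lower, and 2 were higher and 3 lower in Rxra cKO, where 20.8% were higher and 22.2% lower. These contrasts share libraries with each other. Scaling by upper quartile moved the median of all genes by 0.12 in the wild-type medium contrast, and there Id1 was at 0.50 and Id3 at -0.39, both with the same call.

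**Figure D5:**
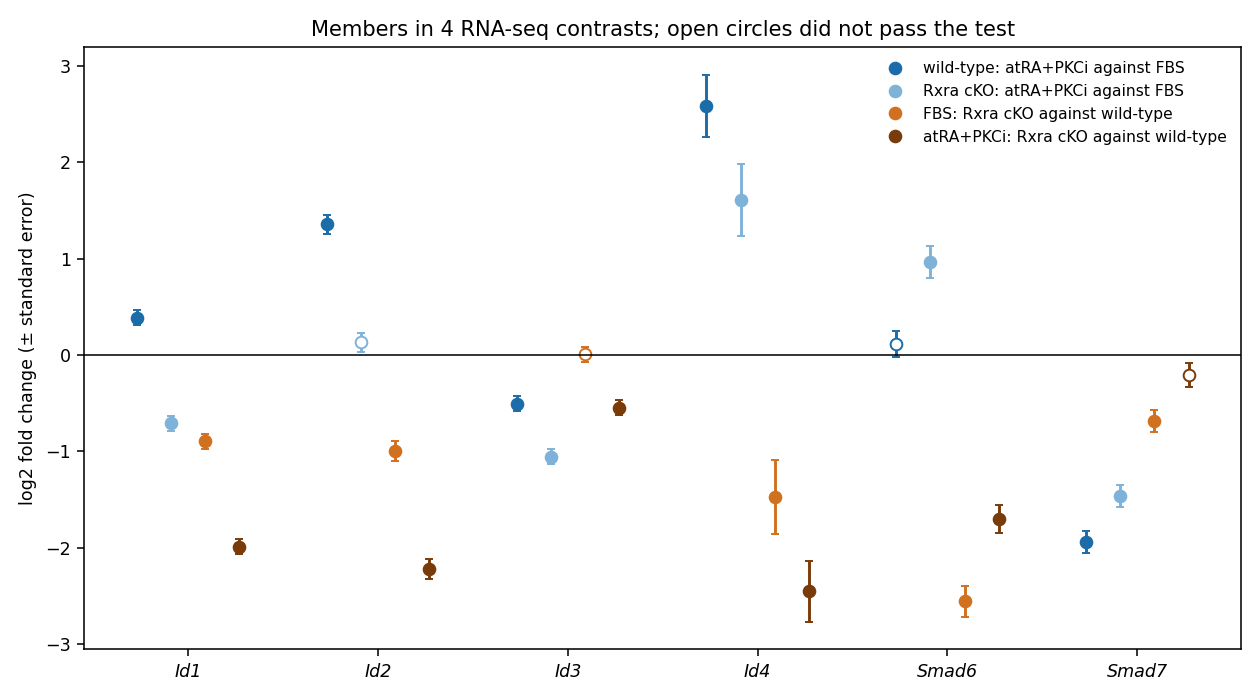
Log2 fold change ± standard error (vertical axis) of each member in 4 contrasts of the RNA-seq libraries, where filled circles passed the test at an adjusted p under 0.05 and open circles did not. Genotype differences (orange and brown) lie at or below 0.01 for all 6 members, while medium differences lie on both sides of 0.

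The effect of the medium itself differed between genotypes for 4 members, as judged by the interaction term (wild-type effect minus Rxra cKO effect), with 11.3% of genes higher and 13.3% lower in that term. It was 1.10 ± 0.11 for Id1 (adjusted p = 0.000216), 1.22 ± 0.14 for Id2 (adjusted p = 0.000451) and 0.55 ± 0.11 for Id3 (adjusted p = 0.0064). For Smad6 it was -0.85 ± 0.21 (adjusted p = 0.0202), a call lost without replicate 2 of Rxra cKO atRA+PKCi (adjusted p = 0.0789) or of wild-type atRA+PKCi (adjusted p = 0.0520). Id4 (0.98 ± 0.50, adjusted p = 0.197) and Smad7 (-0.48 ± 0.16, adjusted p = 0.0650) did not pass. With the replicate block, Smad7 passed (-0.47, adjusted p = 0.0421). It also passed without replicate 1 of Rxra cKO atRA+PKCi (adjusted p = 0.0350) or replicate 2 of wild-type FBS (adjusted p = 0.0159), and Id4 passed without replicate 1 of Rxra cKO FBS (1.47, adjusted p = 0.0295). The members' median was 0.76, beside 0.01 over all genes.

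Genes around the members in the pathway changed with the medium in wild-type cultures, where each gene called had an adjusted p under 0.05 over all genes. All 3 E proteins rose, Tcf12 by 1.08 (adjusted p = 3.81e-06), Tcf4 by 0.51 and Tcf3 by 0.48, and all 3 rose in Rxra cKO as well, by between 0.32 and 0.43. Of 6 regulators of SMAD turnover or repression, 5 fell, among them the ubiquitin ligase Smurf1 (-0.74) and the anti-proliferative gene Tob1 (-0.73). Among 5 SMADs tested, Smad5, which carries BMP signals (0.66), and Smad3, which carries TGFβ and activin signals (0.58), rose. Receptors mostly did not pass (6 of 8), with Acvr2b higher (1.03) and Bmpr1b lower (-1.91).

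Ligands and antagonists changed in both directions. Bmp7 rose by 1.70 and Bmp6 and Bmp2 fell (-3.29 and -0.90) among 5 ligands tested. Of 8 antagonists and feedback genes, 6 fell, among them Grem1 (-3.60), a secreted BMP antagonist, whereas Sostdc1 (1.20) and Twsg1 (0.50) rose. Among 8 other BMP-responsive transcription factors, 3 rose, with Atoh8 at 2.51 and Gata3 at 0.72, and 3 fell, with Dlx5 at -3.34. In Rxra cKO, Bmp4 (3.23) and Bmp7 (2.01) rose with the medium and Bmp6 fell (-1.70). Bmp4 was scarce there, with 0 and 4 counts in FBS and 33 and 12 in atRA+PKCi. Of 8 antagonists and feedback genes, 2 rose in Rxra cKO, Sostdc1 (2.77) and Twsg1 (0.74), and 4 fell, among them Grem1 (-2.97).

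In atRA+PKCi, the genotypes differed in the same lists. Bmp4 (4.22) and Bmp8a (1.96) were higher and Bmp2 (-2.25) and Bmp7 (-0.78) lower in Rxra cKO among 5 ligands. Bmp4 was scarce, with 33 and 12 counts in Rxra cKO and 2 and 0 in wild-type. Bmp8a had 24 and 31 counts against 10 and 4. Of 8 antagonists and feedback genes, 4 were higher, led by Fstl1 (4.08) and Grem1 (1.64), with the pseudoreceptor Bambi lower (-0.93). Receptors split, with Acvrl1 (1.69) and Bmpr1b (1.50) among 3 higher and Acvr2b (-1.10) and Eng (-0.82) among 4 lower. Smad5 (-0.32) and Smad3 (-0.41) were lower. Msx1 (3.32) and Dlx5 (1.01) were among 3 transcription factors higher, and Atoh8 (-2.06) and Dlx2 (-0.67) were lower, as was Tcf12 (-0.48).

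In FBS, the genotypes differed in Bmp2 (-3.58), Bmp6 (-1.46) and Bmp7 (-1.09), which were lower in Rxra cKO, and in 5 higher and 3 lower of 8 antagonists and feedback genes, with Fstl1 (2.49) higher and Nog, which encodes noggin (-1.66), and Sostdc1 (-1.27) lower. By the interaction term, none of 8 receptors passed, Tcf12 (0.75) and Smad3 (0.78) were higher, and Ski (-0.69), Tob1 (-0.63), Bmp6 (-1.59), Bmp2 (-1.34), Dlx5 (-2.74) and Hes1 (-0.74) were among those lower.

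Epidermal differentiation genes moved with medium and genotype too. Their 7 genes summed to 2300.2 and 2503 CPM in wild-type FBS, then 279.9 and 297 in wild-type atRA+PKCi, 1510.4 and 1864 in Rxra cKO FBS and 631 and 607 in Rxra cKO atRA+PKCi. In wild-type, 6 of 7 fell in atRA+PKCi, led by Krtdap (-9.90) and Flg (-8.40), and in atRA+PKCi 6 of 7 were higher in Rxra cKO, led by Krt1 (6.83) and Krtdap (6.58). Feeder and fibroblast markers summed to 11.8 and 7.80 CPM in wild-type FBS, then 1.32 and 4.37 in wild-type atRA+PKCi, 6.19 and 8.62 in Rxra cKO FBS, and 4.61 and 5.29 in Rxra cKO atRA+PKCi. Of 5 such markers tested, 2 fell with the medium in wild-type (Dcn -4.66, Pdgfra -2.91). Dcn was scarce, with 17 and 10 counts in wild-type FBS and 1 and 0 in wild-type atRA+PKCi. The part of either list in the differences of the members was not tested.

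The directions of a member in the culture contrasts are set side by side here with no comparison made, since media, mice and assays differ. In the single cell cultures with BMP2/4 against B-27, Id1, Id2, Id3 and Smad7 were higher by 3.31, 3.97, 3.55 and 2.83 on the log2 scale. In the wild-type RNA-seq cultures with atRA+PKCi against FBS, neither of which had BMP added, the same genes differed by 0.39, 1.35, -0.50 and -1.94.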

How the data were processed

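RNA-seq was deposited by the authors as estimated counts per gene, made with Salmon (1.4.0 in the submitters' processing notes) on mm10, and was rounded here. Per the file headers, single cell matrices hold whole UMI counts that the authors made with Cell Ranger (7.0.1 in those notes). The study's later removal of free RNA and doublets is not part of them. The authors' normalized table, ATAC-seq and CUT&RUN were not used here.

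Counts were tested by edgeR's quasi-likelihood method (edgeR 4.0.16, R 4.3.3, TMM factors, default expression filter, Benjamini-Hochberg adjustment), over 15965 genes of 8 libraries at adjusted p under 0.05, and over 6265 genes of 10 sums per mouse and culture at adjusted p under 0.01 and log2 change beyond 1 in size. Cultures needed 5 cells in both mice. Cells needed 500 genes, 1000 UMIs, under 10% mitochondrial UMIs and 1 hashtag by HTODemux (Seurat 5.3.0, positive quantile 0.99). This removed 187 and 114 barcodes by mitochondrial share. Skin cells were clustered in scanpy 1.11.5 (Python 3.11.15) over 30 principal components of 1999 variable genes, 15 neighbors and resolution 1, after Scrublet marked 5.76% and 2.21% as doublets. A cluster was named where a marker list had a mean score of 1 or more with 3 or more markers found in 10% of cells, and its 10 leading genes held no more markers of another list than of its own. Figures used matplotlib 3.10.9. The edgeR fits were tried on simulated data only for atRA+PKCi against FBS in wild-type libraries and for BMP2/4 against B-27.

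Same-numbered RNA-seq libraries come from 1 mouse by the labels. Their deviations correlated at 0.135 (wild-type) and -0.00082 (Rxra cKO), and those of cultures of a mouse at -0.254 to 0.217 over 10 pairs. The main fits had no block. Members and lists were chosen with earlier results of these data known. Named are the 6 members, in each list and contrast at most 2 called genes from either end of the fold changes, and the 3 genes most like each member. A gene that this rule would name is not reported here. Alternatives were DESeq2 1.42.0, upper quartile factors, no filter, other thresholds, the replicate block, fits of only the libraries compared, leaving out each sample, other hashtag calls and cell filters, and other clusterings.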

Additional observations from a re-analysis of the deposited data

Results flagged for a closer look

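The change between atRA+PKCi and FBS differed between wild-type and Rxra cKO cultures for 4 of 6 members, by the test of the difference itself (interaction term of genotype and medium, edgeR quasi-likelihood test over 15965 genes, 2 libraries a group). Over all genes, 11.3% were called higher and 13.3% lower in that test. The wild-type change minus the Rxra cKO change was 1.10 (log2) for Id1 (adjusted p = 0.000216), which was higher in both atRA+PKCi libraries than in both FBS libraries of wild-type and lower in both of Rxra cKO. It was 1.22 for Id2 (adjusted p = 0.000451), higher in 2 of 2 atRA+PKCi libraries in both genotypes, although in Rxra cKO the difference between media did not pass the test. For Id3 it was 0.55 (adjusted p = 0.0064), with lower levels in atRA+PKCi in both genotypes. For Smad6 it was -0.85 (adjusted p = 0.0202), with higher levels in 2 of 2 Rxra cKO atRA+PKCi libraries. The adjusted p of Smad6 was 0.0789 without replicate 2 of Rxra cKO atRA+PKCi and 0.0520 without replicate 2 of wild-type atRA+PKCi. The summed epidermal differentiation markers also moved with medium and genotype, and their part in these differences was not tested.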

How the results depend on the processing

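No member changed direction past a threshold under any alternative run: of 845 values of single members, 790 kept their call, 43 lost it, 9 gained it and 3 moved. With the limits of the single cell tests (adjusted p below 0.01, more than 2-fold), members called in RNA-seq were 3 in the wild-type medium contrast, 3 in the Rxra cKO medium contrast, 1 for genotype in FBS and 2 by the interaction. Leaving out each library gave 5 to 5, 4 to 5, 5 to 5, 5 to 5 (genotype in atRA+PKCi) and 3 to 5 members, and no filter on low counts gave 6 by the interaction. With the replicate block, 5 members were called in each medium contrast and 5 by the interaction, against 4 without it (Smad7 -0.47, adjusted p = 0.0421), and no other call of a member changed. These counts stand beside large shares of all genes in the main fits. Higher and lower were 27.2% and 26.6% in the wild-type medium contrast and 20.8% and 22.2% in Rxra cKO. For genotype they were 22.3% and 20.5% in FBS and 23.0% and 20.2% in atRA+PKCi, and by the interaction 11.3% and 13.3%. The same stricter threshold left 1381 genes higher and 1579 lower of 4350 and 4249 in the wild-type medium contrast, 817 and 1041 of 3319 and 3542 in the Rxra cKO medium contrast, 1105 and 656 of 3565 and 3275 for genotype in FBS, 1406 and 675 of 3670 and 3225 for genotype in atRA+PKCi, and 440 and 694 of 1807 and 2117 by the interaction.

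In the cultured cells, leaving out each sum gave 0 to 4 members for BMP2/4 against B-27, 0 to 4 for Rspo+BMP2/4 against B-27 and 0 to 1 for Rspo+BMP2/4 against Rspo, where DESeq2 gave 1 (Id1, adjusted p = 0.00752) and leaving out mouse 1 of RARi gave Id1 too (adjusted p = 0.00721). The replicate block called 4, 4 and 0. Under 25% mitochondrial UMIs, Smad6 passed in Rspo+BMP2/4 against B-27 (2.90, adjusted p = 0.00795). Over alternatives, 2 to 96 genes were higher and 56 to 553 lower in BMP2/4 than in B-27, and 1 to 103 higher and 67 to 479 lower in Rspo+BMP2/4, against 27, 331, 31 and 319. Where edgeR called 0 genes, alternatives called at most 4 higher and 4 lower for Rspo+BMP2/4 against BMP2/4, 6 and 1 with RARi, and 7 and 15 against Rspo. A fit without both Rspo sums was added after seeing the data and called the same number of members. A minimum of 3 cells admitted the same cultures, so it gave no value, and BMP2/4 against atRA+PKCi was not tested. In skin, the highest class of all 6 members was the same under 4 other clusterings, and Smad7 in medulla-like cells moved from 369.6 CPM to 318 with stricter cells or doublets kept and to 332 with members among the clustering genes. Cell numbers limit the cultures, where B-27 rests on 5 and 10 cells and Rspo on 5 and 6.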
